A study of Mus musculus with 6 samples.

Results

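The genes described here encode 10 proteins through which T cells and antigen-presenting cells tune each other at their surfaces, namely *Cd80*, *Cd86*, *Icosl*, *Cd274*, *Pdcd1lg2*, *Cd28*, *Icos*, *Ctla4*, *Pdcd1*, and *Havcr2*. They were chosen with earlier results of these data known. They were taken by symbol from the count tables, whichever way they moved, and are 10 of the 46078 gene entries that each table holds. The tables come from bulk RNA-Seq of chronic stroke infarcts and of matching tissue on the other side of the brain, and the question is how the expression of these genes differed between the regions. All 6 libraries are from wild-type C57BL/6J mice with an age given as 3 months, male per the study's methods, in which stroke was made by closing the distal middle cerebral artery for good and then exposing the mice to hypoxia (the DH model). Infarcts were recognized by eye and cut out, and there were 3 infarct libraries and 3 contralateral cortex libraries, all collected 7 weeks after stroke. The contralateral cortices therefore also come from mice that had surgery and hypoxia, and unoperated mice were not analysed here. The study also gave mice vehicle or a cyclodextrin, and the labels of these libraries name no treatment. The labels number the libraries within each region but do not say which came from which mouse, so the *p* values below measure the spread between these tissue samples.

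A T cell that meets its antigen also reads a second set of signals. CD28 and ICOS are activating receptors, bound by CD80 and CD86 and by ICOS ligand, whereas CTLA-4 binds CD80 and CD86 more tightly than CD28 does and restrains the response. PD-1, with its ligands PD-L1 and PD-L2, and TIM-3 are further brakes, and these brakes are known for limiting T-cell responses in tissue that is inflamed for a long time. In the uninjured brain T cells are few and the ligands are sparse, with microglia and border macrophages as the main cells able to carry them.

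In infarcts, mRNAs for ligands and receptors of both the activating and the restraining kind were upregulated. Read counts were scaled to counts per 1000000 reads on genes (CPM) with edgeR's library scaling, and genes were called with edgeR's quasi-likelihood test at a Benjamini-Hochberg adjusted *p* under 0.05 and a change beyond 2-fold. Of the 10 genes, 9 passed edgeR's filter on low counts, and 9 were called higher in infarcts and 0 lower, against 25.7% of the 15554 tested genes called higher and 20.9% called lower. All 10 had every infarct above every contralateral cortex, as did 37.6% of tested genes. The filter itself lifts such counts, because *Cd80*, *Pdcd1lg2*, *Cd28*, *Icos*, and *Pdcd1* passed it only through the infarcts. The 4 genes that would pass on the contralateral libraries alone, *Cd86*, *Icosl*, *Cd274*, and *Havcr2*, were all called higher, as were 19.2% of the 13684 genes of that kind. *Ctla4* failed the filter, and without it edgeR called 10 of 10 genes higher, against 17.3% of all genes.

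**Figure D1:**
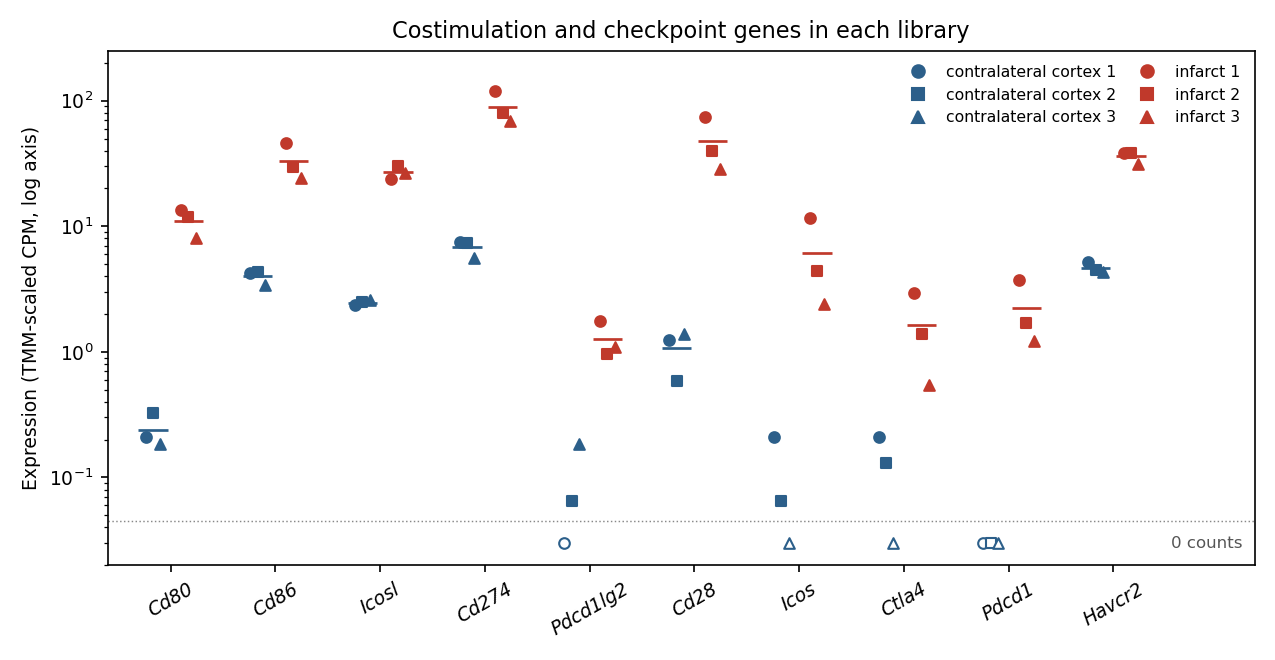
Level of each of the 10 genes in CPM on a log axis, with 1 point per library and a bar at the mean of each region (n = 3), drawn only where all 3 libraries hold counts. Open symbols at the foot of the axis mark libraries with 0 counts, which include all 3 contralateral libraries of *Pdcd1*. For each gene the infarct points lie above the contralateral points, and those of *Cd274* average 89.3 CPM in infarcts.

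Counts on genes ranged from 12146959 to 13427057 per infarct library and from 11943570 to 19933962 per contralateral library. The regions carried the markers of their labels. Summed CPM of 6 neuron markers was 647 to 1918 in infarcts and 9495 to 10421 in contralateral cortices, with 6 of 6 called lower. Summed CPM of 6 markers of monocyte-derived macrophages was 5028 to 8488 in infarcts and 38.4 to 48.9 in contralateral cortices, with 6 of 6 called higher, and 7 of 7 pan-myeloid markers were called higher at 1106 to 1491 against 151 to 201 CPM. The T-cell list summed to 41.5 to 162 CPM in infarcts and 3.23 to 4.81 in contralateral cortices, with 11 of 11 tested markers called higher and *Cd3d*, *Trbc1*, and *Cd8a* at 0 counts in all 3 contralateral libraries. The B-cell list summed to 117 to 295 CPM against 0.326 to 0.646, with 5 of 5 called higher. Of the tested T-cell markers only *Trbc2*, and of the B-cell markers none, would pass the filter on the contralateral libraries alone. The filter therefore lifts the counts of calls in these lists. Over all tested genes, 25.7% were called higher and 20.9% lower. In these bulk tissues fewer cells of a type and less RNA per cell cannot be told apart, and the part of these cell types in the changes of the 10 genes was not tested.

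*Cd80* and *Cd86*, which encode the ligands shared by CD28 and CTLA-4, were both upregulated, with the larger log2 fold change for *Cd80*, which was close to 0 in contralateral cortices. *Cd80* had 168, 161, and 119 counts in infarcts 1, 2, and 3 against 4, 5, and 2 in contralateral cortices 1, 2, and 3. These are 11.1 ± 2.70 CPM and 0.240 ± 0.0754 CPM (SD, n = 3 each), and the log2 fold change was 5.47 (SE 0.37, edgeR adjusted *p* = 1.45e-06). With so few contralateral reads the fold is loosely fixed, and the ratio of pooled counts was 45.2 with an exact 95% interval of 25.0 to 91.3, which covers counting error only. *Cd86*, the ligand that antigen-presenting cells tend to carry at rest, was already present in contralateral cortices with 82, 67, and 37 counts and reached 579, 403, and 357 counts in infarcts. It averaged 33.4 ± 11.4 CPM in infarcts against 4.02 ± 0.526 CPM in the contralateral tissue (SD, n = 3), giving a log2 fold change of 3.04 (SE 0.27, edgeR adjusted *p* = 8.11e-06). The lowest infarct therefore held 24.4 CPM and the highest contralateral cortex 4.36 CPM.

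The balance between the mRNAs of these ligands also stood apart by region. Per unit of exon length, as transcripts scaled to the same total of 1000000 in each library (TPM), *Cd86* exceeded *Cd80* by 20.7, 13.6, and 18.7 times in contralateral cortices 1, 2, and 3 and by 3.49, 2.53, and 3.03 times in infarcts 1, 2, and 3. The ranges of the ratio did not overlap and were not tested, and the contralateral values each rest on 5 or fewer *Cd80* reads. *Cd80* lies at chromosome 16:38455561-38496335 on the plus strand and *Cd86* at 16:36603869-36666081 on the minus strand (GRCm38, GENCODE M21), 1789479 bases apart. The promoter window of *Cd80*, from 250 bases before the RefSeq start to 50 after it (GRCm38.p6, chr16:38458683-38458982, plus strand), is shown because it holds a match, in capitals, to the AP-1 motif. That RefSeq start lies downstream of the GENCODE start, so the whole window falls inside the span given above for *Cd80*.

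Cd80: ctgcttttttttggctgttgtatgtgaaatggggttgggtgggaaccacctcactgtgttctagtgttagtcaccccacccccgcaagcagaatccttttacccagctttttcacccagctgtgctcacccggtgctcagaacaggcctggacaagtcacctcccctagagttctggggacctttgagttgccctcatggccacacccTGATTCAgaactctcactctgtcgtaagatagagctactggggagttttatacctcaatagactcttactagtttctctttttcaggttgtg

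*Icosl*, which encodes the ligand of ICOS on B cells and other antigen-presenting cells, was upregulated, with libraries of the same region close to each other. Counts were 297, 414, and 390 in infarcts 1, 2, and 3 beside 45, 38, and 28 in contralateral cortices 1, 2, and 3. After scaling these were 26.9 ± 3.38 CPM and 2.47 ± 0.117 CPM (SD, n = 3), and the log2 fold change of 3.45 had an SE of 0.20 (edgeR adjusted *p* = 5.83e-07). Unlike most of the other genes, *Icosl* was highest in infarct 2, at 30.4 CPM, and lowest in infarct 1, at 23.7 CPM. It lies at chromosome 10:78069302-78083913 on the plus strand.

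*Cd274*, encoding PD-L1, which dampens T cells that carry PD-1, was strongly upregulated. It had 1498, 1084, and 1012 counts in infarcts 1, 2, and 3 against 143, 112, and 61 in contralateral cortices 1, 2, and 3. The means were 89.3 ± 26.5 CPM in infarcts against 6.80 ± 1.02 CPM in contralateral cortices (SD, n = 3), and the log2 fold change was 3.71 (SE 0.25, edgeR adjusted *p* = 1.33e-06). *Pdcd1lg2*, encoding PD-L2, the other ligand of PD-1, stayed near the limit of detection. It had 22, 13, and 16 counts in infarcts against 0, 1, and 2 in contralateral cortices, so that the regions did not overlap although the infarcts averaged only 1.27 ± 0.426 CPM (SD, n = 3). Its log2 fold change was 4.05 (SE 0.77, edgeR adjusted *p* = 0.00113), and against a floor of 3 counts in each contralateral library it was at least 6.04-fold higher. Leaving out 1 library at a time moved that log2 fold change between 3.33 and 5.08, with edgeR adjusted *p* of at most 0.00980.

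The genes of both PD-1 ligands are neighbors on chromosome 19, at 29367455-29388095 for *Cd274* and 29410919-29471161 for *Pdcd1lg2*, both on the plus strand and 22823 bases apart, yet their levels were far apart. In TPM, *Cd274* exceeded *Pdcd1lg2* by 36.9, 45.1, and 34.2 times in infarcts 1, 2, and 3. Their promoter windows are shown together for that contrast (GRCm38.p6, plus strand, chr19:29367188-29367487 for *Cd274* and chr19:29410669-29410968 for *Pdcd1lg2*). Neither window holds any of the 4 motifs that were searched, so no letters are in capitals. An annotated gene on the minus strand, *AC119228.1*, covers 14.1% of the exon bases of *Cd274*. It has no entry in the count tables and could not be analysed. The other 9 genes share no exon bases with any other gene.

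Cd274: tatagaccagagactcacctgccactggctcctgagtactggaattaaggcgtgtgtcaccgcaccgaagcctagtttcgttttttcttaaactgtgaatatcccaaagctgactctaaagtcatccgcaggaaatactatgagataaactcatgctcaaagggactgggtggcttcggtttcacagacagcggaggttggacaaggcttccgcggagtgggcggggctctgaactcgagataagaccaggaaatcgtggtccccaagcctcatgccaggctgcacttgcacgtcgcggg
Pdcd1lg2: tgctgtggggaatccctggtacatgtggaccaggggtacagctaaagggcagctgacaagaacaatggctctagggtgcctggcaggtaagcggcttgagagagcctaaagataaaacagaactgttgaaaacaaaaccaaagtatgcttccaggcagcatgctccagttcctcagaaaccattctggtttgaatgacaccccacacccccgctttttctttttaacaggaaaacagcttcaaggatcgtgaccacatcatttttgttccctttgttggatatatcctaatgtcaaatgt

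Windows were found in the RefSeq promoter table for 7 of the 10 genes, all but *Cd28*, *Icos*, and *Cd86*. Both strands were searched for TTCNNNGAA (GAS, a response element of interferon γ), the ISRE core (GAAA repeated after a gap of any pair of bases, bound by interferon regulatory factors), GAGGAAGT (bound by PU.1), and TGANTCA (AP-1), none of which contains another. Among all 32851 windows of the same length, 8.30% hold GAS, 3.44% ISRE core, 3.20% PU.1, and 7.81% AP-1. Among the 7 windows, GAS and ISRE core were in 0, PU.1 in 1 (*Havcr2*), and AP-1 in 2 (*Cd80* and *Havcr2*). These are matches of letters within 300 bases only.

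*Cd28* and *Icos*, the activating receptors, rose from a few reads to levels well above the contralateral cortices. *Cd28*, carried by T cells and also by plasma cells, had 924, 544, and 421 counts in infarcts 1, 2, and 3 against 24, 9, and 15 in contralateral cortices 1, 2, and 3. That is 47.4 ± 23.3 CPM and 1.07 ± 0.428 CPM (SD, n = 3), and the log2 fold change was 5.47 (SE 0.47, edgeR adjusted *p* = 2.00e-05), or 44.3-fold. *Icos*, which T cells display after activation, had 146, 60, and 35 counts in infarcts against 4, 1, and 0 in contralateral cortices. Its mean was 6.14 ± 4.86 CPM in infarcts, and the log2 fold change was 5.71 (SE 0.88, edgeR adjusted *p* = 0.000474). The pooled count ratio of *Icos* was 53.5, with an exact 95% counting interval of 22.6 to 166, and its log2 fold change moved between 4.88 and 7.01 when single libraries were left out.

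*Ctla4* and *Pdcd1*, whose products restrain T cells, were the sparsest of the receptors. *Pdcd1*, encoding PD-1, had 47, 23, and 18 counts in infarcts 1, 2, and 3 against 0 counts in all 3 contralateral cortices. At 2.22 ± 1.34 CPM in infarcts (SD, n = 3), it was at least 10.6-fold higher than a floor of 3 counts in each contralateral library, with an edgeR adjusted *p* of 0.000463. *Ctla4* had 37, 19, and 8 counts in infarcts 1, 2, and 3 against 4, 2, and 0 in contralateral cortices 1, 2, and 3. It was not tested with the low count filter, and without the filter its log2 fold change was 3.59 (SE 0.75, edgeR adjusted *p* = 5.07e-05), with 3.73 by DESeq2 (adjusted *p* = 0.000475). The pooled count ratio of *Ctla4* was 11.8 (exact 95% counting interval 5.15 to 33.5), and its lowest infarct was separated from the highest contralateral cortex by few reads. *Cd28*, *Ctla4*, and *Icos* lie in a row on the plus strand of chromosome 1, at 60716800-60773359, 60887000-60915832, and 60977927-61000320, with gaps of 113640 and 62094 bases, and *Pdcd1* lies farther along at 94038305-94052553 on the minus strand.

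*Havcr2* encodes TIM-3, which T cells carry after long stimulation and which microglia and dendritic cells also carry. Unlike *Ctla4* and *Pdcd1*, this gene was readily detected on both sides. Counts were 477, 522, and 462 in infarcts 1, 2, and 3 beside 100, 69, and 47 in contralateral cortices 1, 2, and 3. The means were 35.95 ± 3.83 CPM and 4.68 ± 0.473 CPM (SD, n = 3), and the log2 fold change of 2.93 (SE 0.18, edgeR adjusted *p* = 9.16e-07) was the smallest of the 9 that were tested. The gene lies at chromosome 11:46454935-46481255 on the plus strand. Its promoter window (GRCm38.p6, chr11:46454681-46454980, plus strand) is shown as the one that holds matches, in capitals, to both AP-1 and PU.1, at 200 and 8 bases before the start.

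Havcr2: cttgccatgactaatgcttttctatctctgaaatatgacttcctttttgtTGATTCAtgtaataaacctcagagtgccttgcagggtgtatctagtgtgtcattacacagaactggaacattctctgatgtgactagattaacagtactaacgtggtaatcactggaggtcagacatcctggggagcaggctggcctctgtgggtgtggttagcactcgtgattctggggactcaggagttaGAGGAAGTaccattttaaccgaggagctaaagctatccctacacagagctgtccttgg

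**Figure D2:**
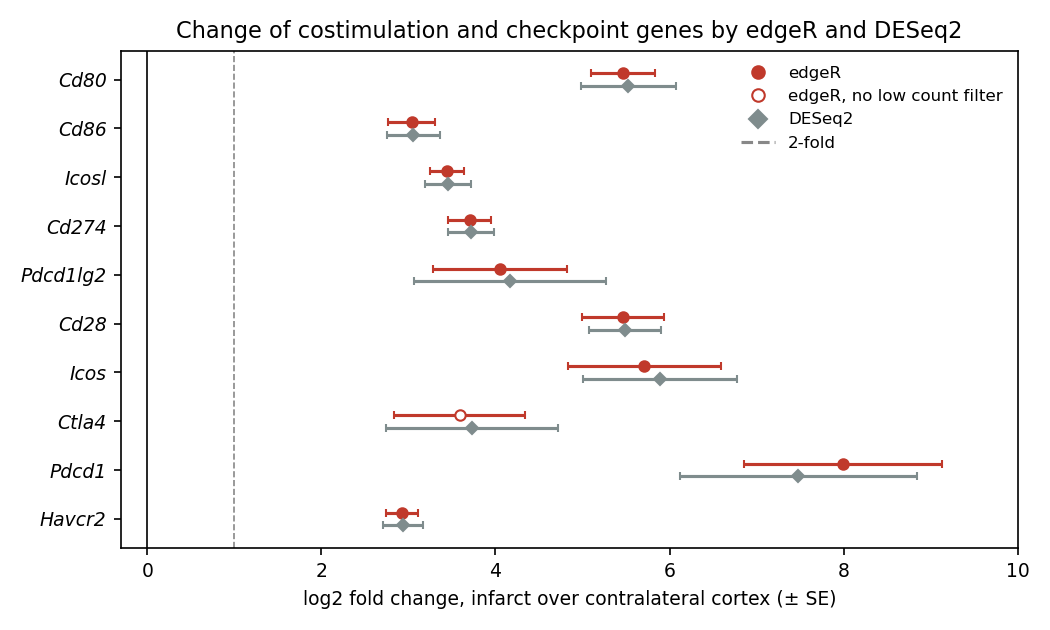
Log2 fold change of infarct over contralateral cortex for the 10 genes, with bars of 1 SE, from edgeR (circles) and DESeq2 (diamonds), and a dashed line at 2-fold. The SE of edgeR was derived from its test statistic and that of DESeq2 was reported by the tool, so the bars are not the same quantity. *Ctla4* is drawn open because its edgeR value comes from the fit without the low count filter, and the values of *Pdcd1* and *Pdcd1lg2*, with 3 or fewer counts in every contralateral library, depend on the model and are no estimate of size. *Havcr2* and *Cd86* lie lowest, near 3, and *Cd80* and *Cd28* near 5.5.

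Compared per length within infarcts, these genes fell in an order that was separated at some steps and overlapped at others. *Cd274* averaged 102 TPM and made up 36.2% ± 1.56 (SD, n = 3) of the summed TPM of the 10 genes. *Havcr2* followed with 55.6 TPM, or 20.1% ± 3.62, and its share did not overlap with that of *Cd274* above it or that of *Cd86* below it. *Cd86* at 13.3% ± 0.937 overlapped with *Cd28* at 11.0% ± 2.43, and *Cd28* overlapped with *Icosl* at 9.08% ± 2.83. *Cd80* at 4.45% ± 0.492 lay below *Icosl* and above *Icos* at 2.41% ± 1.31 without overlap of shares, although *Cd80* and *Icos* overlapped in TPM. *Icos* overlapped with *Pdcd1* at 1.60% ± 0.532, and *Pdcd1* lay above *Pdcd1lg2* at 0.951% ± 0.163 in every infarct. In infarct 3 that step rested on 18 against 16 reads, and *Pdcd1* and *Pdcd1lg2* also overlapped in TPM, so their order is loosely fixed. *Pdcd1lg2* and *Ctla4*, at 0.944% ± 0.496, overlapped, so that the order of this last pair is not set by these data.

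In contralateral cortices most of the much smaller sum was in the same leading genes. There *Cd274* made up 33.5% ± 2.24, *Havcr2* 30.8% ± 1.54, and *Cd86* 19.6% ± 1.21 of the summed TPM (SD, n = 3). *Cd28* stood at 3.19% ± 1.42 on that side, whereas each infarct held at least 9.01%. The shares of *Cd86* did not overlap between regions and were lower in infarcts, and those of *Havcr2* likewise, with 22.2% in the highest infarct. These shares are descriptions of the mixture and have no test, and dividing by the longest transcript in place of all exon bases left the infarct order unchanged for the first 8 genes and swapped the last pair.

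The infarcts were not alike, and the receptors of T cells varied most between them. *Ctla4* differed 5.40 times between the highest and lowest infarct in CPM, *Icos* 4.87 times, *Pdcd1* 3.05 times, and *Cd28* 2.56 times, and all 4 were highest in infarct 1 and lowest in infarct 3. The T-cell marker list had the same extremes with a spread of 3.91 times, the NK-cell list 2.80 times, and the B-cell list 2.52 times. The ligands varied less, by 1.89 times for *Cd86*, 1.84 for *Pdcd1lg2*, 1.73 for *Cd274*, and 1.65 for *Cd80*, each with infarct 1 highest. *Icosl* and *Havcr2* varied least, by 1.29 and 1.22 times, beside 1.35 times for the myeloid list and 1.06 times for the list of homeostatic microglia. The neuron list ran the other way, with infarct 3 highest at 1.69 times the mean of the 3 infarcts and a spread of 2.96 times. With 3 infarcts these spreads are descriptions, and how much uninfarcted tissue each dissection held was not tested.

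**Figure D3:**
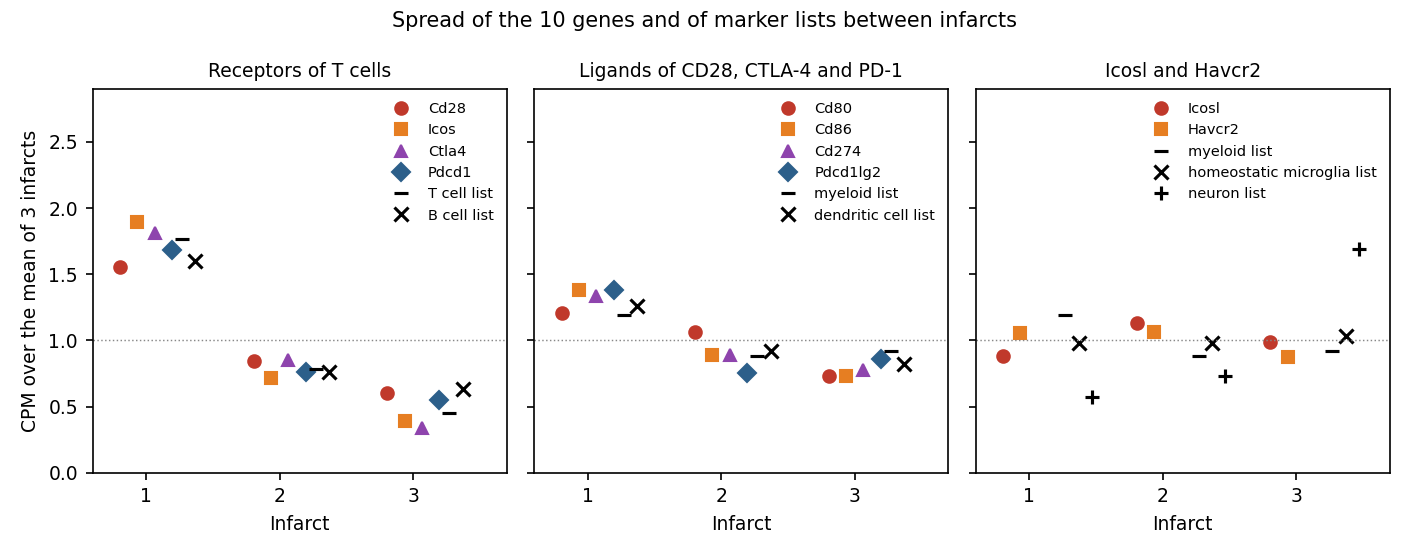
Level of each gene in infarcts 1, 2, and 3, in CPM divided by the mean of the 3 infarcts, in 3 panels of genes with the summed CPM of marker lists (black symbols) treated the same way, and symbols shifted sideways for legibility. The receptors *Cd28*, *Icos*, *Ctla4*, and *Pdcd1* are highest in infarct 1 and lowest in infarct 3, as are the T-cell and B-cell lists, whereas *Icosl* and *Havcr2* stay within 0.877 and 1.13 of their means.

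Set against T-cell markers, the receptors kept different proportions in the 3 infarcts. *Cd28* equaled 45.3%, 55.5%, and 69.2% of the summed CPM of the 12 T-cell markers in infarcts 1, 2, and 3, and was therefore highest in relation to the list in the infarct in which it was lowest in CPM. *Icos* held a narrower range of 7.16%, 6.12%, and 5.76% of the list, and *Pdcd1* was at 2.31%, 2.34%, and 2.96%. *Ctla4* was at 1.81%, 1.94%, and 1.32%. In TPM, *Cd28* exceeded *Cd3e*, a chain of the T-cell receptor complex, by 2.32, 4.07, and 3.74 times, whereas *Icos* stood at 0.653, 0.802, and 0.555 times *Cd3e*. *Cd28* also exceeded *Ctla4*, its inhibitory counterpart, by 9.50, 10.9, and 20.03 times in TPM in infarcts 1, 2, and 3. No test was made of these proportions. The contralateral libraries held too few reads of *Icos*, *Ctla4*, *Pdcd1*, and most T-cell markers. *Cd28*, with 24, 9, and 15 counts there, equaled 26.1%, 13.6%, and 42.9% of the list in contralateral cortices 1, 2, and 3. That list sum was 4.81, 4.30, and 3.23 CPM, of which *Trbc2* alone gave 3.97, 3.78, and 2.49 CPM. Of the 3 markers of regulatory T cells, which are known for high CTLA-4, *Ikzf2* and *Il2ra* were called higher, with log2 fold changes of 1.76 and 3.40 (edgeR adjusted *p* = 0.00104 and 0.00452). The third, *Foxp3*, had 10, 4, and 6 counts in infarcts against 2, 0, and 0 in contralateral cortices and did not pass the filter, and without the filter it was called higher (edgeR adjusted *p* = 0.0162). *Ikzf2* had 194, 139, and 106 counts in contralateral cortices 1, 2, and 3, where *Cd3e* had 4, 0, and 0. Which cells carried *Ikzf2* was not tested.

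For the 4 genes detected throughout, the level was also expressed as a percentage of the summed CPM of 7 pan-myeloid markers (*Csf1r*, *Aif1*, *Itgam*, *Tyrobp*, *Fcer1g*, *Laptm5*, and *Spi1*). *Cd274* was at 8.00%, 7.20%, and 5.99% of that sum in infarcts 1, 2, and 3 and at 4.27%, 4.83%, and 2.80% in contralateral cortices 1, 2, and 3. All infarcts lay above all contralateral cortices, with a log2 difference of 0.86 and an exact two-sided permutation *p* of 0.1, the smallest that 3 against 3 libraries allow. *Icosl* stood at 2.22% ± 0.587 and 1.42% ± 0.190 (SD, n = 3), a log2 difference of 0.61 with overlapping libraries (exact permutation *p* = 0.2). *Cd86* at 2.63% ± 0.491 and 2.34% ± 0.602 differed by 0.18 on the log2 scale (exact permutation *p* = 0.6), and *Havcr2* at 2.92% ± 0.485 and 2.70% ± 0.476 by 0.11 (exact permutation *p* = 0.7). The direction of all 4 depended on the markers chosen. Against the lists of homeostatic microglia and monocyte-derived macrophages together, the log2 difference was -1.05 for *Cd274*, -1.30 for *Icosl*, -1.73 for *Cd86*, and -1.80 for *Havcr2* (exact permutation *p* = 0.1 each), whereas against *Csf1r* alone it was 1.73, 1.48, 1.05, and 0.98 in the same order (exact permutation *p* = 0.1 each), and no direction relative to myeloid cells is given here.

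**Figure D4:**
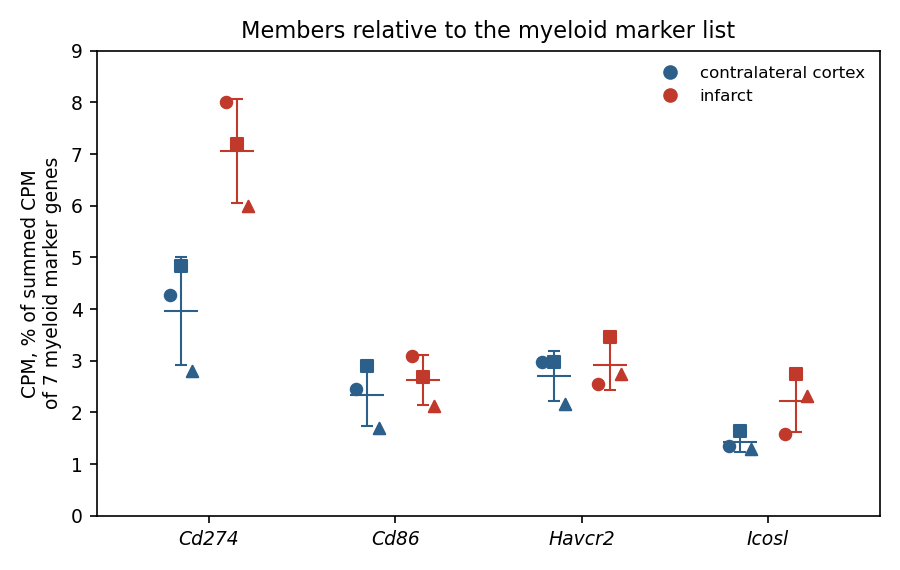
CPM of *Cd274*, *Icosl*, *Cd86*, and *Havcr2* as a percentage of the summed CPM of 7 myeloid markers, with 1 point per library and a bar at the mean of each region. The infarct points of *Cd274* (5.99% to 8.00%) lie above the contralateral points (2.80% to 4.83%), and those of the other 3 genes overlap. With the microglia and macrophage lists as the denominator all 4 differences change sign.

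Other genes of these pathways were followed in 9 lists with 75 genes, of which 57 were tested. The lists were chosen with earlier results of these data known, so their counts beside those of all genes are descriptions only. In infarcts 38 were called higher and 2 lower, 17 were not called, and the median log2 fold change was 2.87, beside 25.7% called higher, 20.9% called lower, and a median of 0.03 over all tested genes. Of the 39 that would pass the filter on the contralateral libraries alone, 21 were called higher and 2 lower, with a median of 1.18. Among all 13684 genes of that kind, 19.2% were called higher. Of the 18 genes that did not pass the filter, edgeR without the filter called 12 higher and 0 lower and DESeq2 called 11 higher and 0 lower, with 10 in common, against 17.3% and 16.4% of all genes called higher by these fits. In the list of other B7 and CD28 family members 3 of 5 genes were tested and all 3 were called higher. *Btla*, an inhibitory receptor of B and T cells, led with a log2 fold change of 5.53 (SE 0.39, edgeR adjusted *p* = 2.62e-06). *Vsir*, encoding the checkpoint protein VISTA of myeloid cells, was the most abundant at 217 CPM in infarcts against 26.9 CPM, a log2 fold change of 3.01. *Cd276* had the smallest change of the list at 1.25 and was not called by edgeR's glmTreat, which tests against 2-fold (adjusted *p* = 0.0979). *Vtcn1*, with 7 counts over the infarcts, and *Vsig4*, with 0 counts in every contralateral cortex, did not pass the filter.

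Among 9 other inhibitory receptors, 7 were tested, 5 were called higher and 1 lower, with a median log2 fold change of 3.26. *Cd244a* had 53, 50, and 54 counts in infarcts and at most 2 counts in a contralateral cortex, and was at least 18.4-fold higher. *Cd200r1*, the receptor through which neuronal CD200 restrains myeloid cells, had a log2 fold change of 3.83 (SE 0.25, edgeR adjusted *p* = 1.10e-06), whereas its ligand gene *Cd200* had -0.15 and was not called. *Cd96* rose by 3.69 from 9 contralateral counts in all. *Lag3*, a brake of activated T cells, was present on both sides with 137, 88, and 108 counts in infarcts against 37, 34, and 23 in the contralateral tissue, giving a log2 fold change of 1.98 (SE 0.28, edgeR adjusted *p* = 0.000183). *Cd160* was called lower, with 8, 14, and 15 counts in infarcts against 23, 47, and 24 in contralateral cortices (log2 fold change -1.24, SE 0.46, edgeR adjusted *p* = 0.0359). That call was lost in 9 of 15 alternatives, which were library totals, DESeq2 (adjusted *p* = 0.0546), limma voom, glmTreat, and the fits without any 1 infarct, contralateral cortex 2, or contralateral cortex 3, and the adjusted *p* ranged from 0.0168 to 0.296 over the 15. *Sirpa*, the most abundant of the list at 669 CPM in infarcts, had a log2 fold change of 0.78, under the 2-fold threshold, and *Tigit* and *Klrg1* did not pass the filter.

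Ligands of TIM-3 and of the other inhibitory receptors gave 6 genes called higher and 0 lower of 11 tested. *Lgals3*, encoding galectin-3, a ligand of LAG-3, had the largest log2 fold change at 9.58 (SE 0.67, edgeR adjusted *p* = 1.58e-05), from 0, 5, and 9 contralateral counts to 4239, 2616, and 3314 in infarcts. *Cd48*, whose product binds CD244, followed at 6.08, and *Tnfrsf14*, whose product binds BTLA and CD160, at 3.95. *Lgals9*, encoding galectin-9, a ligand of TIM-3, rose by 3.82 on the log2 scale to 117 CPM. *Cd47*, at -0.01, the most abundant gene of the list at 328 CPM in infarcts, was not called, nor was *Nectin3* at -0.81, *Hmgb1* at 0.08, or *Pvr* at 0.79. None of the 3 other TIM family genes passed the filter. *Havcr1* among them had 72, 8, and 7 counts in infarcts 1, 2, and 3 against 0 in all contralateral cortices.

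**Figure D5:**
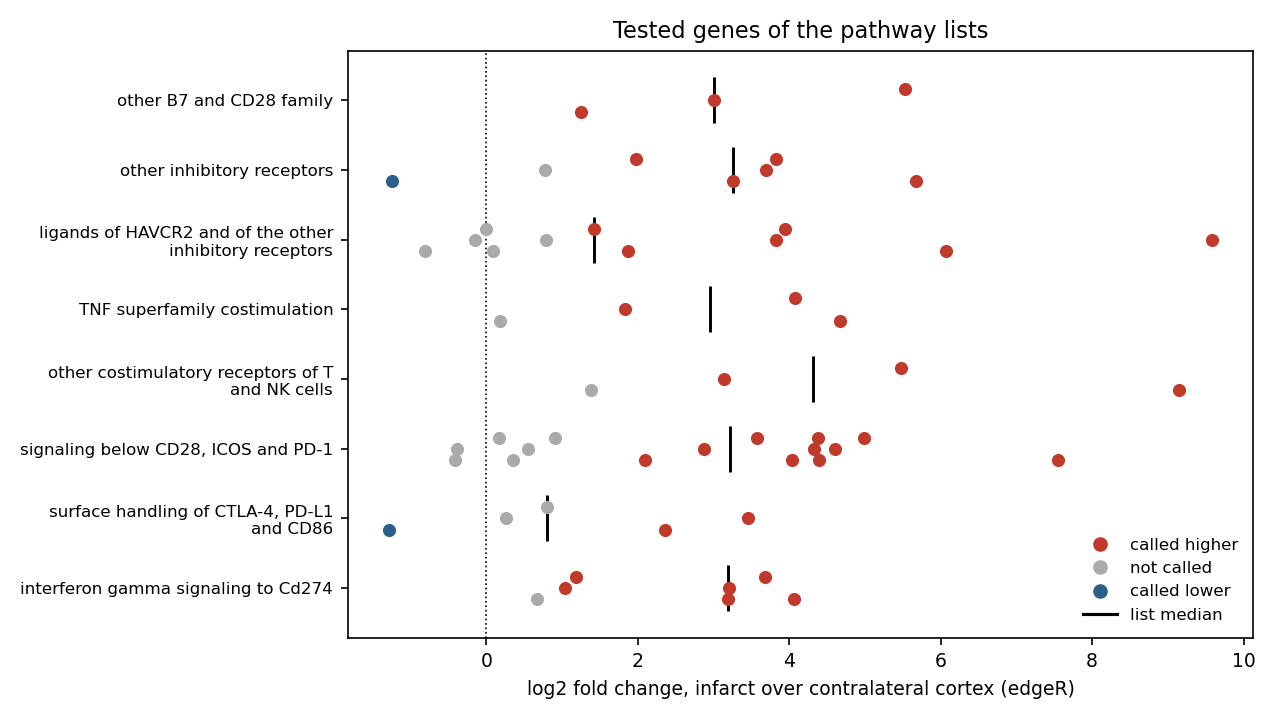
Log2 fold change of infarct over contralateral cortex (edgeR) for each of the tested genes of the pathway lists, 1 point per gene and 1 row per list with any tested gene, colored by whether the gene was called higher, called lower, or not called, with a black bar at the list's median. Of 57 genes, 38 were called higher and 2, *Cd160* and *Cmtm4*, lower. The points of *Cd2*, *Themis*, and *Cd244a*, with 3 or fewer counts in every contralateral library, depend on the model.

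Of 11 genes for TNF superfamily costimulation, 4 passed the filter and 3 of these were called higher, beside 25.7% of all tested genes. The 3 that were called, *Cd40*, *Tnfrsf4*, and *Tnfrsf9*, would not pass the filter on the contralateral libraries alone. Of the 7 that did not pass, *Cd40lg*, *Tnfsf4*, *Tnfsf14*, *Tnfsf18*, and *Cd27* were called higher both by edgeR without the filter and by DESeq2, and *Tnfsf9* and *Cd70* by neither. *Cd40*, the receptor through which T-cell help reaches antigen-presenting cells, had a log2 fold change of 4.67 (SE 0.54, edgeR adjusted *p* = 4.46e-05), with 156, 74, and 66 counts in infarcts against 7, 4, and 2 in contralateral cortices. Its ligand gene *Cd40lg* had 16, 18, and 6 counts in infarcts against 0 in contralateral cortices, at least 4.78-fold higher. *Tnfrsf9*, encoding 4-1BB, had a log2 fold change of 4.08. *Tnfrsf4*, encoding OX40, had 1.83, and its call was lost by glmTreat (adjusted *p* = 0.0780) and without infarct 1, contralateral cortex 2, or contralateral cortex 3. *Tnfrsf18*, encoding GITR, the only gene of the list that would pass on the contralateral libraries alone, had 0.18 and was not called. Of 5 other costimulatory receptors of T and NK cells, 4 were tested and 3 were called higher, which were *Cd2*, at least 23.6-fold higher, *Slamf6* with a log2 fold change of 5.47, and *Cd226* with 3.14. *Slamf1* had 1.38 and was not called, and *Crtam* did not pass the filter. None of these 4 tested receptor genes would pass on the contralateral libraries alone.

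Of 16 genes that signal below CD28, ICOS, and PD-1, all 16 were tested, 10 were called higher and 0 lower, with a median log2 fold change of 3.22. The calls included *Themis*, known from T cells, at least 27.8-fold higher, and *Ptpn6*, encoding the phosphatase SHP-1, at 4.60 (SE 0.28, edgeR adjusted *p* = 8.51e-07). *Ptpn11*, encoding SHP-2, which PD-1 recruits, was the most abundant of the list at 253 CPM in infarcts against 225 CPM in the contralateral tissue, with a log2 fold change of 0.17 that was not called. *Pik3r1* at -0.39, *Fyn* at -0.42, *Grb2* at 0.36, *Cblb* at 0.55, and *Prkcq* at 0.91 were not called either.

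Genes that handle these proteins at the cell surface split by direction. *Cmtm6*, whose product keeps PD-L1 at the surface, averaged 232 CPM in infarcts against 45.1 CPM in the contralateral tissue, giving a log2 fold change of 2.36 (SE 0.16, edgeR adjusted *p* = 1.30e-06). Its relative *Cmtm4* was called lower, with 2257, 2855, and 3632 counts in infarcts 1, 2, and 3 against 9806, 8319, and 5413 in contralateral cortices 1, 2, and 3 (log2 fold change -1.29, SE 0.16, edgeR adjusted *p* = 9.13e-05). Its infarct order, lowest in infarct 1 and highest in infarct 3, was that of the neuron list, whose part in the result was not tested. *Def6* rose by 3.45 on the log2 scale, whereas *Lrba*, needed to recycle CTLA-4, at 0.26 and *March1*, whose product removes CD86 from the surface, at 0.81 were not called.

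Interferon γ, made by T and NK cells, is a known inducer of PD-L1, and genes along that route gave 6 of 7 tested called higher and 0 lower. *Ciita* had a log2 fold change of 4.06, *Irf1* of 3.68 (SE 0.31, edgeR adjusted *p* = 6.79e-06), and *Ifngr1* of 3.20. *Ifngr2* at 1.18 and *Jak2* at 1.04 were called but not by glmTreat, and the call of *Jak2* was also lost without infarct 1 or without contralateral cortex 1. *Jak1*, the most abundant of the list at 360 CPM in infarcts, had 0.66 and was not called. *Ifng* itself had 2, 6, and 0 counts in infarcts 1, 2, and 3 against 0 in contralateral cortices, and did not pass the filter. Without the filter it was called higher by edgeR (adjusted *p* = 0.0461) but not by DESeq2 (adjusted *p* = 0.176), so that the call rests on 8 reads and on the tool. *Socs1* did not pass the filter either.

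Genes nearest to each of the 9 tested genes were found by the root mean square difference of log2 CPM, each centered on its own mean over the 6 libraries. *Cd274* had the closest match of the 9 genes, *Tapbp* of peptide loading onto MHC class I, at 0.0488, followed by *Zc3hav1* at 0.0715 and *Tmem173* at 0.0949. *Cd86* was nearest to *A4galt* at 0.0826, *Cd80* to *Flnc* at 0.0816, *Havcr2* to *Col4a1* at 0.0822, and *Icosl* to *Scara3* at 0.109. *Cd28* was nearest to *Btla* at 0.229, *Icos* to *Gimap1* at 0.290 and then to *Cd4* at 0.299, *Pdcd1* to *Gm15922* at 0.140, and *Pdcd1lg2* to *S1pr4* at 0.141. The measure is a description over 6 libraries in 2 regions, where any gene with a similar fold change lies close.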

How the data were processed

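Bulk RNA was sequenced from 3 infarcts and from 3 contralateral cortices. Per the labels and the study's methods, the authors made stranded mRNA libraries, demultiplexed reads with bcl2fastq 2.19, trimmed them with Trimmomatic 0.32, aligned them to GRCm38 with STAR 2.5.2b, and deposited whole raw counts per Ensembl gene from HTSeq, not normalized. The version, annotation, and strand setting of HTSeq are not given in the sources used here. Each table ends with 5 tallies of unassigned reads, which entered neither library sizes nor tests, so that 65.7% to 73.4% of tallied reads were used. Of 46078 identifiers, 45229 matched GENCODE M21.

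In R 4.3.3, edgeR 4.0.16 was run on all genes with filterByExpr, TMM scaling, and a robust quasi-likelihood fit with region as the only term (biological coefficient of variation 0.22), with Benjamini-Hochberg adjustment over 15554 tested genes. SE for edgeR is the absolute log2 fold change divided by the square root of the F statistic of the quasi-likelihood test. For DESeq2 it is the SE which that tool reports. Alternatives were DESeq2 1.42.0, limma voom (limma 3.58.1), other scalings, filters, and thresholds, the replicate number as a block, and each library left out. On simulated data with 200 of 15554 genes changed 4-fold, edgeR called 194 of them and 6 unchanged genes. The simulation used the same dispersion for all genes and far fewer changed genes than were called here. Its rates therefore check the code and need not hold for these data. TPM used summed exon length. Python 3.11.15, pandas 2.3.3, SciPy 1.17.1, and matplotlib 3.10.9 served for the other steps. Replicates of a region differed by more than counting error, so all 6 libraries were kept as separate samples. The genes and lists were chosen with earlier results of these data known. All 10 genes are named, and of the lists the genes called lower, the 3 with the largest changes called higher, the most abundant, and those not tested may be named, with the 3 genes nearest in pattern. Other named list genes (*Cd276*, *Lag3*, *Lgals9*, *Cd200*, *Nectin3*, *Hmgb1*, *Pvr*, *Tnfrsf18*, *Slamf1*, *Pik3r1*, *Fyn*, *Grb2*, *Cblb*, *Prkcq*, *Lrba*, *March1*, *Ifngr2*, and *Jak2*) fall outside that rule and were picked with their values known. Some list genes are not reported here.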

Additional observations from a re-analysis of the deposited data

How the results depend on the processing

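Every log2 fold change of the 9 tested genes kept its direction and its call in all 139 alternative values. Some of these could not differ. The values without the fold threshold are those of the main fit under a looser rule, and glmTreat keeps the log2 fold changes of the main fit. *Cd80*, *Pdcd1lg2*, *Cd28*, *Icos*, and *Pdcd1* have no value where at least 10 counts were required in every library. The count of the 10 genes called higher was 4 when at least 10 counts were required in every library, where fewer genes enter the test, and 9 or 10 otherwise. *Ctla4* joined the calls without the filter, by DESeq2, and when infarct 3 or any single contralateral library was left out. For the pathway lists, the count called higher, 38, was 21 with 10 counts in every library, 51 without the filter, 49 by DESeq2, 44 without the fold threshold, 34 by glmTreat, and 37 to 46 with single libraries left out. The count called lower, 2, was 1 with library totals, with 10 counts in every library, by DESeq2, by limma voom, and by glmTreat, 5 without the fold threshold, and 1 to 2 with single libraries left out. *Cmtm4* stayed called lower in each of these. Scaling by library totals raised the median over all genes from 0.03 to 0.23 on the log2 scale and turned no direction among the 10 genes. The ratios to myeloid markers reversed with the microglia and macrophage lists, to -1.73 for *Cd86*, -1.80 for *Havcr2*, -1.05 for *Cd274*, and -1.30 for *Icosl*. Against *Csf1r* alone they kept their sign and were larger, at 1.05, 0.98, 1.73, and 1.48 in the same order (exact permutation *p* = 0.1 each). With single libraries left out, that of *Cd86* lay between -0.034 (without contralateral cortex 3) and 0.35, and that of *Havcr2* between -0.043 (without contralateral cortex 3) and 0.20, with -0.018 without infarct 2. With the longest transcript as length, the infarct share was 16.3% for *Cd86*, 12.7% for *Icosl*, and 30.9% for *Cd274*. Same-numbered infarct and contralateral libraries deviated with correlations of -0.190, 0.101, and 0.00110, and differently numbered ones with -0.238 to 0.178. With 3 libraries per region, these values cannot show whether same-numbered libraries share a mouse. With the replicate number as a block, 9 of the 10 genes were called higher, and 38 list genes were called higher and 2 lower. Depth limits *Ctla4*, *Pdcd1*, *Pdcd1lg2*, and *Icos*, each with 4 or fewer reads in every contralateral library.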
